A study of Mus musculus with 3 samples.

Results

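*Entpd1*, *Nt5e*, *Cd38* and *Adora2a* were described in intratumoral pmel T cells across single-cell RNA libraries of 3 cytokine regimens, namely sIL-2 alone, the fused cytokine IL-2/21-Trikine (here Trikine), and sIL-2 given together with IL-21 (sIL-2 + IL-21, here the combination). The 4 genes were chosen by symbol, as the ectoenzymes that make extracellular adenosine and the receptor that senses it on T cells, out of 33696 genes counted. Their identifiers in the count tables are ENSMUSG00000048120, ENSMUSG00000032420, ENSMUSG00000029084 and ENSMUSG00000020178. Pmel T cells carry a transgenic T cell receptor for the melanoma antigen gp100. Spleen cells from Thy1.1+ mice of the strain B6.Cg-Thy1a/Cy with the transgene Tg(TcraTcrb)8Rest had been cultured with the gp100 peptide plus the cytokine and given to Thy1.2+ C57BL/6J hosts that had been irradiated and bore B16F10 melanoma tumors, so the tumor and all other host cells lacked Thy1.1. All groups belonged to a low-dose regimen, and tumors were taken on day 18 after tumor injection and sorted for live Thy1.1+CD8+ cells. Hosts of cells preconditioned with sIL-2 or with the combination both received sIL-2 alone *in vivo*, while cells preconditioned with Trikine, a single molecule that engages receptors for both cytokines, were followed by Trikine. There was 1 library for each regimen. The number of mice in a library and their age at harvest were not given in the sources used here. With 1 library per condition there is no replicate error, so no test between conditions was made, and every interval below is an exact 95% interval that covers counting error only.

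The purinergic pathway begins with ATP, which stressed or dying cells release and T cells sense as a danger signal. *Entpd1* encodes CD39, which removes phosphates from extracellular ATP and ADP to give AMP, and *Nt5e* encodes CD73, which turns AMP into adenosine. CD38, the product of *Cd38*, consumes NAD outside the cell and can feed the same route from another side. *Adora2a* encodes the adenosine receptor A2a, which raises cAMP and dampens T cell receptor signaling. CD39 and CD38 are commonly read as features of chronically stimulated CD8+ T cells in tumors, whereas CD73 is also abundant on naive and memory T cells, and the A2a receptor is studied as a checkpoint in tumors.

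The kept cells numbered 7760 with sIL-2, 13299 with Trikine and 9798 with the combination, and each library held between 130200802 and 168041089 UMIs, where a UMI marks 1 captured RNA molecule. Median UMIs per cell were 12882.5, 10254 and 14055.5, so the Trikine library was the shallowest per cell. The sort was checked against markers. All 8 T cell genes (*Cd3e*, *Cd3d*, *Cd3g*, *Cd8a*, *Cd8b1*, *Thy1*, *Trac* and *Ptprc*) were detected, with summed levels of 5035 to 6484 CPM (UMIs of a gene per 1000000 UMIs of its library), while *Cd4* and *Foxp3* had a UMI in at most 1.28% of cells of a library. *Ikzf4*, the other gene of the CD4 and regulatory T cell list, had one in 18.7%, 13.1% and 17.4% of cells. Libraries shared between 18 and 41 barcodes in a pair. Hemoglobin genes summed to 68.7 CPM with sIL-2 and to at most 0.476 CPM in the other libraries, and the part of that library difference in the values below was not tested.

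*Nt5e* showed the widest difference between libraries of the 4 genes. It measured 30.5 CPM with sIL-2 (95% interval 29.6 to 31.5), 18.6 CPM with Trikine (18.0 to 19.3) and 6.31 CPM with the combination (5.94 to 6.71), on 3975, 3104 and 1061 UMIs. The 3 intervals do not overlap, and the level with the combination was the lowest. At full depth, 23.4% of cells had an *Nt5e* UMI with sIL-2, 13.5% with Trikine and 7.07% with the combination. Because a deeper cell shows more genes, each cell was also thinned at random to 2000 UMIs and shallower cells were left out (266, 1775 and 364 cells in the same order). After thinning, 6.59%, 4.06% and 1.61% of cells had one, so the order of libraries stayed.

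As ratios, *Nt5e* with the combination was 4.84-fold lower than with sIL-2, a log2 ratio of -2.27 (-2.37 to -2.18). That value lay at percentile 0.134 of the 11233 genes with at least 1 CPM on average. Trikine over the combination gave 1.56 (1.46 to 1.66), at percentile 99.7, and Trikine over sIL-2 gave -0.71 (-0.78 to -0.65). Intermediate *Nt5e* with Trikine therefore sat nearer, on the log2 scale, to sIL-2 than to the combination.

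*Entpd1*, whose enzyme acts just before CD73, followed another order. It measured 33.7 CPM with sIL-2 (32.7 to 34.7), 21.9 CPM with Trikine (21.2 to 22.7) and 33.4 CPM with the combination (32.6 to 34.3). The sIL-2 and combination intervals overlap almost entirely, with a log2 ratio of -0.01 (-0.07 to 0.05). Trikine was lower by 1.54-fold than sIL-2, a log2 ratio of -0.62 (-0.68 to -0.56), and gave -0.61 (-0.67 to -0.55) over the combination. Thinned shares of cells with an *Entpd1* UMI were 5.76%, 4.10% and 5.54% for sIL-2, Trikine and the combination. These *Entpd1* ratios shrank to -0.37 and -0.35 when each cell was given equal weight, which is under the fold of 0.5 on the log2 scale used for a call, although Trikine stayed lowest.

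*Adora2a* and *Cd38* differed less. *Adora2a* measured 40.3 CPM with sIL-2 (39.2 to 41.4), 32.5 CPM with Trikine (31.7 to 33.4) and 26.2 CPM with the combination (25.4 to 27.0), so the order was that of *Nt5e* with a smaller range. Its log2 ratio of the combination over sIL-2 was -0.62 (-0.68 to -0.56). Trikine lay between, at -0.31 over sIL-2 and 0.31 over the combination. *Cd38* measured 8.66 CPM with sIL-2 (8.17 to 9.18), 8.16 CPM with Trikine (7.73 to 8.61) and 6.48 CPM with the combination (6.10 to 6.88). The first 2 intervals overlap, with a log2 ratio of -0.09 (-0.20 to 0.03), while the combination over sIL-2 gave -0.42 (-0.54 to -0.30). The thinned shares of cells with a *Cd38* UMI were 1.89%, 1.74% and 1.56%, and their intervals overlap.

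**Figure D1:**
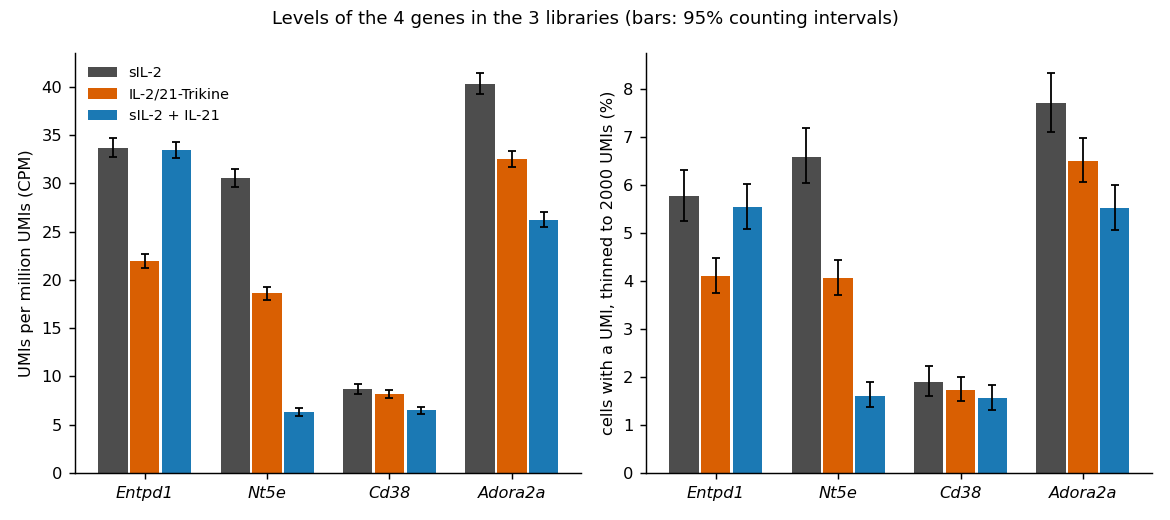
Levels of the 4 genes in each library, as CPM on the left and as the percent of cells with a UMI after thinning to 2000 UMIs on the right, with 95% counting intervals and 1 library per bar. *Nt5e* goes from 30.5 to 18.6 to 6.31 CPM across sIL-2, Trikine and the combination, while *Entpd1* is lowest with Trikine at 21.9 CPM.

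Counted by the fold of 0.5 on the log2 scale, *Entpd1* and *Nt5e* were lower with Trikine than with sIL-2 and no member was higher, where 7.36% of all genes were lower and 3.45% higher. With Trikine over the combination, *Nt5e* was higher and *Entpd1* lower, against 4.59% and 5.68% of all genes. With the combination over sIL-2, *Nt5e* and *Adora2a* were lower and no member was higher, against 11.2% and 7.32%. The 3 comparisons share libraries and are not independent of each other. In bulk or summed counts, fewer cells with a transcript and less transcript per cell cannot be told apart from the sum alone, and the shares above moved in the same order as the sums for all 4 genes after thinning.

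A large part of the transcripts of *Nt5e*, *Entpd1* and *Adora2a* came from few cells. With sIL-2, 6.16% of cells had at least 3 *Nt5e* UMIs and held 56.6% of all *Nt5e* UMIs, and in the combination library 0.837% of cells held 31.8%. For *Entpd1*, 6.25% of cells held 48.7% of UMIs with sIL-2 and 1.84% held 26.5% with Trikine. For *Adora2a*, 6.49% of cells held 35.2% with sIL-2 and 2.76% held 24.5% with Trikine. *Cd38* was spread more thinly, with 14.3% of its UMIs at most in such cells. UMIs gathered in single cells vary more than independent counts, so the intervals on summed levels are narrower than the spread between cells would give. Counted at full depth, 76 cells with sIL-2 had a UMI of all 4 genes (0.979%), 39 with Trikine (0.293%) and 14 with the combination (0.143%). After thinning, 0 cells of each library had all 4. Depth and levels of the genes differed between libraries, so these counts do not measure joint expression.

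*Nt5e* also followed the number of UMIs in a cell, which the other members did less. When the cells of each library were ranked by UMIs and cut into 4 equal bins, *Nt5e* with sIL-2 measured 58.6, 47.9, 31.8 and 19.6 CPM from the bin with the fewest UMIs to that with the most. With Trikine it measured 41.1, 33.0, 18.8 and 11.8 CPM. With the combination it measured 28.8, 9.66, 4.72 and 2.61 CPM. The level dropped from bin to bin in all 3 libraries, and in each bin the order of libraries was sIL-2, Trikine, the combination. *Entpd1* did not drop in this way, with 36.0, 25.6, 27.6 and 38.7 CPM with sIL-2 and 31.0, 25.4, 31.7 and 37.3 CPM with the combination. Trikine gave 31.5, 21.9, 19.8 and 22.0 CPM for *Entpd1*, so its gap to the other libraries was absent in the bin with the fewest UMIs against the combination and wide in the bin with the most. *Adora2a* was nearly flat with sIL-2, between 39.1 and 42.9 CPM, and went from 36.2 to 23.4 CPM with the combination. Bin limits differ between libraries because cells differed in depth.

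**Figure D2:**
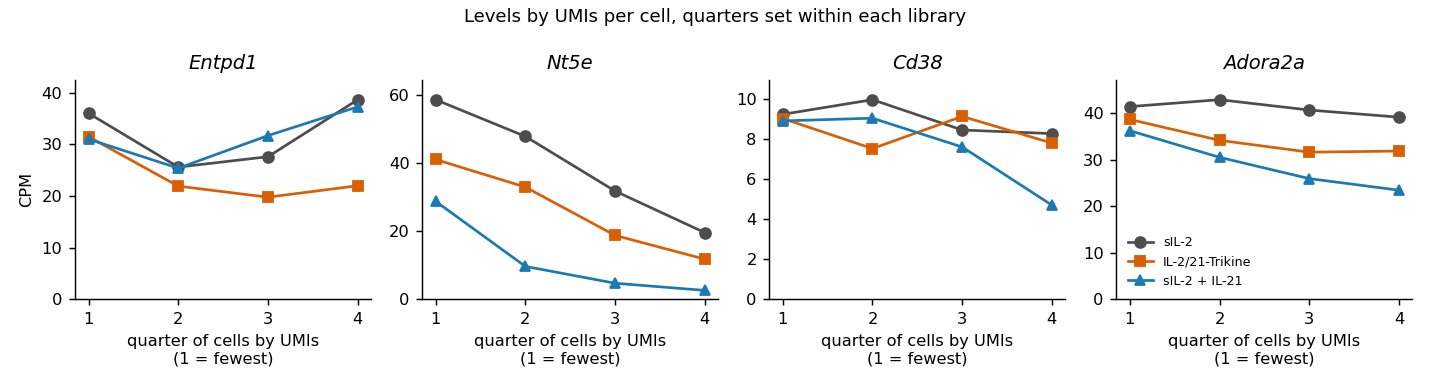
Level of each gene in CPM (vertical axis) in 4 equal bins of cells ranked by UMIs within each library (horizontal axis, 1 for the fewest UMIs), with a line for each library. *Nt5e* drops steadily from bin 1 to bin 4 in every library, from 58.6 to 19.6 CPM with sIL-2, while *Entpd1* with sIL-2 starts at 36.0 and ends at 38.7 CPM.

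The next comparison asked whether *Entpd1* and *Nt5e*, which act one after the other, were found in the same cells or in opposite cells. Neither was detectable. In thinned cells, 32 of 7494 had a UMI of both genes with sIL-2, where the product of the separate shares gives 28.5. With Trikine the numbers were 26 of 11524 against 19.2, and with the combination they were 10 of 9434 against 8.43. Among cells with an *Entpd1* UMI, 7.41% had an *Nt5e* UMI with sIL-2 (5.12% to 10.3%), against 6.54% of cells without (5.98% to 7.14%). For Trikine the shares were 5.51% (3.63% to 7.97%) and 4.0% (3.64% to 4.38%), and for the combination they were 1.91% (0.921% to 3.49%) and 1.59% (1.34% to 1.88%). The share without lay inside the interval of the share with *Entpd1* in all 3 libraries after thinning. At full depth, without bins of depth, it lay outside in opposite directions in 2 libraries. With Trikine the shares were 16.9% (15.4% to 18.4%) and 12.7%. For the combination they were 6.16% (5.36% to 7.05%) and 7.52%.

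Expressed as odds ratios, where 1 means that both genes were found independently, the thinned values were 1.16 (0.762 to 1.66), 1.42 (0.894 to 2.11) and 1.26 (0.562 to 2.30) for sIL-2, Trikine and the combination, and the intervals leave room for an association on either side of 1. Thinning to 5000 UMIs, which keeps more double-positive cells (110, 86 and 41), gave 0.951, 1.04 and 0.938. At full depth, within bins of cells of like depth (Mantel-Haenszel over 10 bins), the values were 0.968, 1.15 and 0.925, and requiring at least 2 UMIs of each gene gave 0.827, 1.27 and 0.754. With sIL-2 and the combination the values fell on both sides of 1 with the depth and the limit used. With Trikine these values were all above 1, between 1.04 and 1.42, while thinning to 1000 UMIs gave 0.541. Another random draw at 2000 UMIs gave 0.867, 1.19 and 1.49. Depth was handled by thinning or by bins. Cells with both genes had a median of 20905 UMIs with sIL-2, and cells with neither had 11326. Thinning does not even out the original depth of a cell. Within 4 bins of that depth, the values thinned to 2000 UMIs were 1.15, 1.34 and 1.24.

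**Figure D3:**
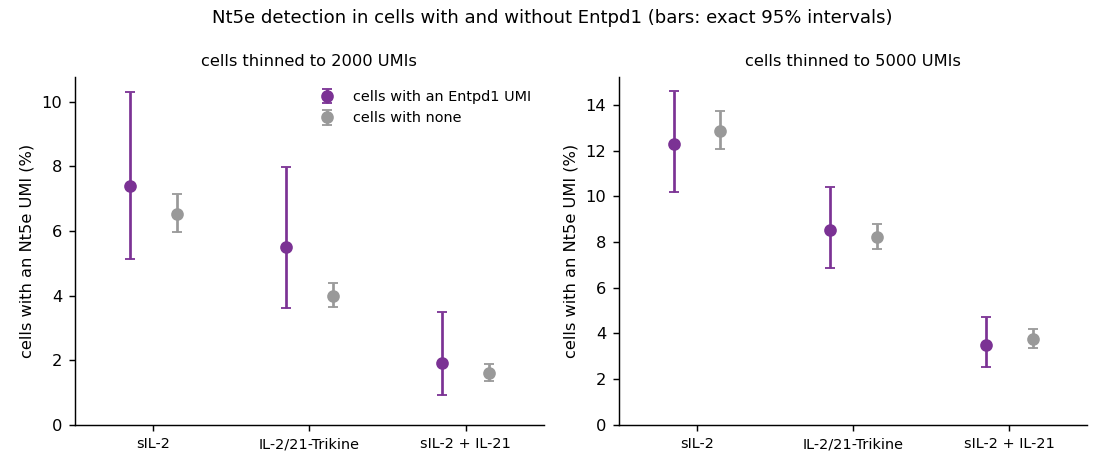
Percent of cells with an *Nt5e* UMI (vertical axis, exact 95% intervals) among cells with an *Entpd1* UMI and among cells without, for each library, after thinning to 2000 UMIs on the left and to 5000 UMIs on the right. The intervals of both kinds of cells overlap in every library, for example 7.41% and 6.54% with sIL-2 on the left.

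At full depth, *Entpd1* was found with *Cd38* more often than separate shares give in all 3 libraries. *Nt5e* was so with sIL-2 and Trikine but not with the combination, where 65 cells had both against 66.6 from the separate shares. An excess at full depth was not particular to these pairs. *Adora2a* gave full-depth odds ratios of 1.67, 1.53 and 1.50 with *Entpd1* and 1.69, 1.67 and 1.58 with *Cd38*. These full-depth values were not taken within bins of depth. For *Entpd1* with *Cd38*, thinned odds ratios were 2.02, 1.70 and 1.17 for sIL-2, Trikine and the combination, on only 15, 13 and 9 double-positive cells, and another random draw gave 1.05 with sIL-2. At full depth, within the 10 bins of depth, the values were 1.68, 1.48 and 1.35, on 421, 376 and 422 double-positive cells. With at least 2 UMIs of each gene they were 1.83, 2.47 and 2.11, on 57, 33 and 41 double-positive cells. All of these values were above 1 in 3 of 3 libraries. The intervals of the thinned values were 1.06 to 3.40 with sIL-2, 0.853 to 2.91 with Trikine and 0.496 to 2.19 with the combination. Only the interval with sIL-2 excluded 1. Thinning to 5000 UMIs gave 1.68, 1.09 and 1.38 in the same order. The values within the bins of depth and with at least 2 UMIs have no intervals. *Adora2a* with *Entpd1* gave 0.968, 0.895 and 0.894 within the bins of depth, and *Adora2a* with *Nt5e* gave 0.966, 1.01 and 0.970, both near 1. *Nt5e* with *Cd38* gave 1.15, 1.31 and 1.05 within the bins, and with at least 2 UMIs of each 1.46, 2.43 and 1.41 on 31, 22 and 3 double-positive cells. These values were above 1 in 3 of 3 libraries but have no intervals, and the thinned values were 0.892, 1.04 and 1.48. *Cd38* with *Adora2a* gave 1.1, 0.993 and 1.28.

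*Entpd1* and *Nt5e* differed in the T cell states they went with, although no joint or opposite pattern was detectable in thinned cells. For granzymes and perforin they went in opposite directions. Cells were ranked by the summed UMIs of a list of state genes after thinning, and each member was compared between cells above the 75th percentile (high) and cells at or under the 25th (low). The cut is a range of a score and not a cell type, and the members are in none of the 10 lists. Scores were small whole numbers, so low cells were not always a small part. For proliferation, low cells had 0 UMIs and made up 5514 of 7494 thinned cells with sIL-2. For interferon response with sIL-2, 1618 cells were high and 2104 lay within 1 UMI of the upper cut. For granzymes and perforin with sIL-2, these numbers were 1674 and 172. For granzymes and perforin, the proteins with which killer cells destroy their targets, *Entpd1* was higher in high cells in all libraries. It measured 49.3 against 19.0 CPM with sIL-2, 35.2 against 17.2 CPM with Trikine and 36.5 against 21.5 CPM with the combination, and the log2 differences were 1.37 (0.98 to 1.78), 1.03 (0.64 to 1.42) and 0.77 (0.34 to 1.21). *Nt5e* went the other way. It measured 20.6 against 53.3 CPM with sIL-2, 13.7 against 26.7 CPM with Trikine and 3.99 against 20.7 CPM with the combination, with log2 differences of -1.37 (-1.78 to -0.97), -0.96 (-1.53 to -0.44) and -2.37 (-3.05 to -1.72). High cells were also deeper, with a median of 19224.5 against 10520 UMIs with sIL-2, so the ratios were taken again within 4 bins of UMIs per cell. They were then 1.51, 1.39 and 0.85 for *Entpd1* and -0.89, -0.40 and -1.31 for *Nt5e*, in the same directions in 3 of 3 libraries but smaller for *Nt5e*. High cells made up 22.3%, 10.5% and 43.8% of the sIL-2, Trikine and combination libraries.

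The list of stem and memory genes (among them *Tcf7*, *Lef1*, *Il7r*, *Ccr7*, *Bcl2*, *Slamf6*, *S1pr1*, *Klf2* and *Id3*) separated the same pair. *Nt5e* measured 58.7 against 27.7 CPM in high and low cells with sIL-2, 35.0 against 16.8 CPM with Trikine and 26.9 against 4.64 CPM with the combination. The log2 differences were 1.08 (0.76 to 1.40), 1.06 (0.73 to 1.40) and 2.53 (1.96 to 3.12). *Entpd1* gave -0.22, 0.08 and -0.23 for the same list, with intervals that include 0 in all 3 libraries. *Nt5e* was lower in high cells of the proliferation list in every library, at -1.15, -1.11 and -2.27, and of the hypoxia list, at -0.70, -1.09 and -1.25, where no interval reached 0. *Entpd1* differed by at most 0.26 in size in these lists. *Adora2a* was lower in hypoxia-high cells too, at -0.39, -0.36 and -0.48, and no interval reached 0. Within bins of UMIs per cell, *Adora2a* gave -0.40, -0.32 and -0.41 for hypoxia. For granzymes and perforin, *Adora2a* gave -0.68, -0.36 (-0.75 to 0.02) and -0.79, the direction of *Nt5e*. For tissue residency, *Nt5e* gave 0.25, 1.0 and 1.43, of which the first includes 0. Within bins of UMIs per cell the *Nt5e* values were 0.72, 0.77 and 1.46 for stem and memory, -0.51, -0.44 and -1.14 for proliferation, -0.45, -0.83 and -0.20 for hypoxia and -0.01, 0.54 and 0.50 for residency. The depth of the cells thus moved with these states. Of these lists, only stem and memory stayed past the fold of 0.5 for *Nt5e* in all 3 libraries. Proliferation stayed past it with sIL-2 and the combination but not with Trikine (-0.44).

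Lists of recent activity divided the members in another way. For cytokines and chemokines, high cells had less *Nt5e* (-1.77, -1.69 and -2.07 on the log2 scale) and less *Entpd1* with sIL-2 (-0.98) and Trikine (-0.91), while *Entpd1* with the combination gave -0.36 (-0.73 to 0.01). *Adora2a* was higher in the same cells, by 0.83 (0.53 to 1.14) with sIL-2, 0.49 (0.22 to 0.76) with Trikine and 0.68 (0.34 to 1.01) with the combination. For antigen signal, a list of early genes that T cell receptor engagement switches on, *Adora2a* measured 52.0 against 31.7 CPM with sIL-2, 46.1 against 27.2 CPM with Trikine and 39.4 against 19.7 CPM with the combination. *Entpd1* was lower in antigen signal-high cells, at -0.90 with sIL-2 and -0.66 with Trikine, and gave -0.04 (-0.40 to 0.32) with the combination. *Nt5e* gave -0.55 (-0.87 to -0.23), -0.28 (-0.64 to 0.07) and 0.48 (-0.07 to 1.03) for that list in the same order of libraries. Within bins of UMIs per cell these *Nt5e* values were -0.66, -0.54 and -0.32, and those of *Entpd1* were -0.89, -0.75 and -0.07. Interferon response-high cells had more *Nt5e* in all libraries, at 0.45, 0.74 and 1.21, and *Entpd1* gave 0.33, 0.34 and 0.58. Within bins of UMIs per cell, *Nt5e* gave -1.59, -1.46 and -1.83 for cytokines and chemokines and 0.17, 0.40 and 0.44 for interferon response, and *Adora2a* gave 0.70, 0.76 and 0.92 for antigen signal.

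*Cd38* had few UMIs after thinning, and most of its differences had intervals that include 0. For the inhibitory receptors and *Tox*, the genes most often read as exhaustion, *Cd38* gave 0.17 (-0.55 to 0.85), 0.83 (0.19 to 1.45) and 0.61 (-0.17 to 1.35) for sIL-2, Trikine and the combination. *Entpd1* gave 0.19, -0.07 and 0.61 for that list, and only the value with the combination (0.25 to 0.97) had an interval above 0. *Nt5e* gave -0.18 (-0.53 to 0.16), -0.91 (-1.44 to -0.41) and -1.04 (-1.93 to -0.24). Within bins of UMIs per cell, *Nt5e* gave 0.07, -0.77 and -0.78.

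**Figure D4:**
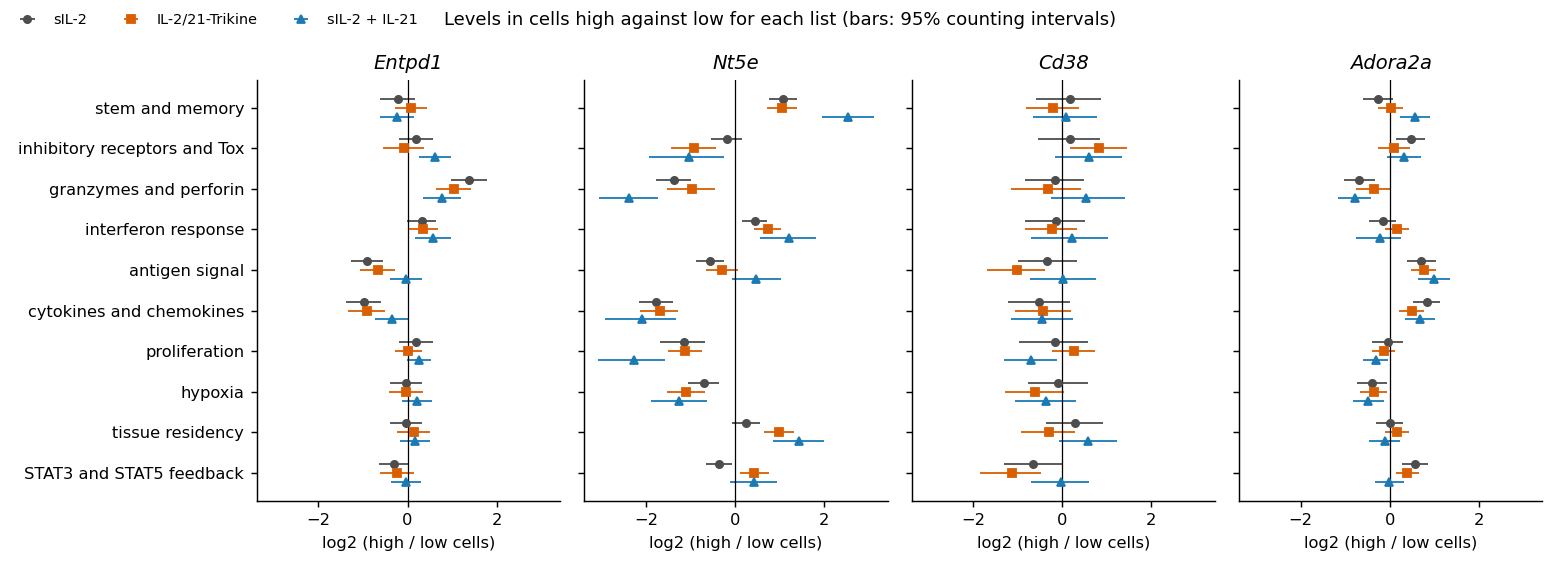
Log2 ratio of each gene's level in cells high over cells low for each of the 10 state lists (horizontal axis), with 95% counting intervals and a marker for each library. *Nt5e* is left of 0 for granzymes and perforin, cytokines and chemokines, proliferation and hypoxia and right of 0 for stem and memory, while *Entpd1* is right of 0 for granzymes and perforin (1.37, 1.03 and 0.77).

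The library order of *Nt5e* held inside these states. In 20 groups of cells (high and low of 10 lists), *Nt5e* with the combination was lower than with sIL-2 in 20 of 20, by log2 ratios between -2.71 and -1.13. Trikine was lower than sIL-2 in 20 of 20 (-1.20 to -0.19) and higher than the combination in 20 of 20 (0.37 to 2.19). *Entpd1* with Trikine was lower than in each other library in 20 of 20 (-0.71 to -0.14 over sIL-2, and -0.92 to -0.05 over the combination). *Entpd1* with the combination was lower than with sIL-2 in 14 of 20 and higher in 6. The groups overlap in cells, so the counts are a description and not independent repeats.

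Single genes of the lists were compared as well. A gene was counted as found more often with a member where its odds ratio was above the inverse of 0.8 in 3 of 3 libraries, and less often where it was under 0.8 in 3 of 3, among genes with a UMI in at least 2% of thinned cells. These odds ratios were thinned but not taken within bins of depth. For *Entpd1*, 2.02% of 6877 genes were found more often and 1.73% less often. For *Nt5e*, 6.21% of 6878 genes were found more often and 5.34% less often. Of the hypoxia genes, 0 of 9 passed the limit as less often with *Nt5e*. *Pgk1* (0.801, 0.741 and 0.669 for sIL-2, Trikine and the combination), *Ldha*, *Bnip3* and *Ndrg1* were under 1 in 3 of 3 libraries. The others counted were on both sides of 1. Of the antigen signal genes, 0 of 10 passed as less often with *Entpd1*. The sum of that list gave -0.04 for *Entpd1* with the combination. *Nr4a1*, *Nr4a2*, *Nr4a3*, *Fos*, *Cd69* and *Tnfrsf9* were under 1 in 3 of 3, and the others were on both sides of 1. Of the cytokine and chemokine genes, whose sum went with more *Adora2a*, 0 of 7 passed the limit as more often with *Adora2a*. All of these but *Tnf* (0.879, 1.13 and 1.03) were nonetheless above 1 in 3 of 3 libraries. Of 7 granzyme and perforin genes that could be counted, 6 were found more often with *Entpd1* and 6 less often with *Nt5e*. *Gzmd*, a granzyme of late effector cells, gave 2.07, 1.94 and 1.62 with *Entpd1* and 0.546, 0.622 and 0.193 with *Nt5e* for sIL-2, Trikine and the combination. *Prf1*, which encodes perforin, gave 2.09, 1.57 and 1.66 with *Entpd1* and 0.682, 0.771 and 0.295 with *Nt5e*.

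Of 7 stem and memory genes counted, 5 were found more often with *Nt5e*. *Tcf7*, which encodes the transcription factor TCF-1 of stem-like T cells, gave 1.84, 1.35 and 2.60, and *S1pr1*, the receptor that lets T cells leave tissue, gave 1.56, 1.78 and 2.76. With *Entpd1*, *Lef1* was found more often (1.40, 1.40 and 1.28) and *Ccr7*, a lymph node homing receptor, less often (0.451, 0.617 and 0.667). *Lef1* was also found more often with *Nt5e* (1.32, 1.46 and 2.36). *Ccr7* was under 1 with *Nt5e* too (0.882, 0.757 and 0.929), so it did not separate the pair, but it did not pass the limit. *Klf2* was above 1 with *Nt5e* (1.24, 1.35 and 2.32) and did not pass either. Of 9 proliferation genes, 7 were found less often with *Nt5e*, among them *Mki67* (0.745, 0.703 and 0.445), and 5 of 7 cytokine and chemokine genes were, among them *Ifng* (0.486, 0.507 and 0.418). *Havcr2*, which encodes the inhibitory receptor TIM-3, was found more often with *Entpd1* (1.40, 1.50 and 1.59) and less often with *Nt5e* (0.535, 0.449 and 0.486). Of the 5 other genes of that list that could be counted, *Tigit*, another inhibitory receptor gene, was found more often with *Nt5e* (1.53, 1.76 and 3.26), and the rest, among them *Pdcd1*, *Lag3* and *Tox*, were neither with *Nt5e*, while with *Entpd1* none of the 5 passed. *Itga1*, a collagen-binding integrin of tissue-resident cells, was found more often with both, at 1.46, 1.53 and 1.72 with *Entpd1* and 1.31, 1.62 and 2.57 with *Nt5e*.

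**Figure D5:**
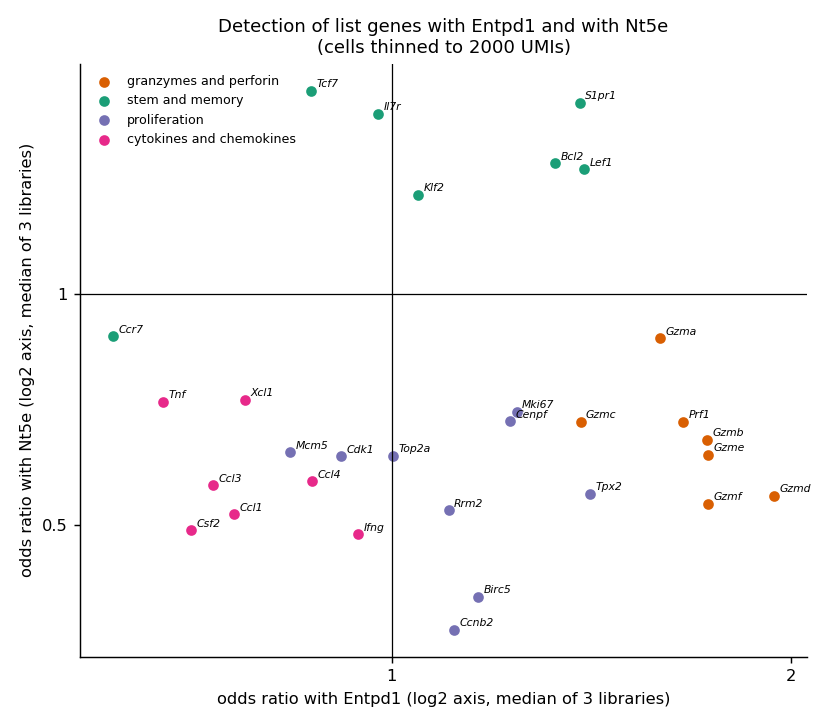
Odds ratio of detection with *Entpd1* (horizontal log axis) and with *Nt5e* (vertical log axis) for each gene of 4 state lists with a UMI in at least 2% of thinned cells, as the median of 3 libraries in cells thinned to 2000 UMIs, where 1 means found independently. The 7 granzyme and perforin genes that could be counted lie at the lower right, above 1 with *Entpd1* and under 1 with *Nt5e*, although *Gzma* did not pass the limits in all 3 libraries, and the 5 stem and memory genes found more often with *Nt5e* lie above 1 on the vertical axis.

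Over all genes, those with odds ratios furthest from 1 were ranked by the library nearest to 1. For *Entpd1* the highest were *Vim* (1.85, 1.68 and 1.78), which encodes the filament protein vimentin, *Med12l*, *Gzmd*, *Dscam* and *Prf1*. For *Nt5e* the highest were *Btg1* (2.35, 2.10 and 2.43), an antiproliferative gene of quiescent lymphocytes, *Cracr2a*, *Gramd3*, *Emb* and *Rgs10*. *Dscam*, a cell adhesion gene best known from neurons, was among the 5 highest for *Entpd1* (2.25, 1.90 and 1.62) and the 5 lowest for *Nt5e* (0.201, 0.307 and 0.364). *Ckap2l*, a mitotic spindle gene, was also among the lowest for *Nt5e* (0.322, 0.256 and 0.213). The remaining lowest genes for *Nt5e* (*Tmsb4x*, *Rps15a* and *Rpl32*) and all 5 for *Entpd1* (*Rpl23*, *Tpt1*, *Rpl13*, *Rps15a* and *Rps23*) had a UMI in over 99% of thinned cells, so their odds ratios rest on very few cells without one.

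For *Cd38*, 2.73% of 6878 genes were found more often and 1.76% less often, and for *Adora2a* 0.567% and 0.291% of 6877. Of 6 inhibitory receptor genes counted, *Tox* (1.46, 1.54 and 1.82) and *Tigit* (1.62, 1.252 and 1.51) were found more often with *Cd38*. *Tox* encodes a transcription factor of exhausted T cells. Only 142, 200 and 147 thinned cells had a *Cd38* UMI, so these odds ratios rest on few cells. *Tigit* with Trikine barely passed the limit. The 5 highest for *Cd38* included *Tmem260*, *Agpat1*, *St6galnac3* and *Phyh*, each with a UMI in under 4% of thinned cells, and the 5 lowest were *Tmsb4x*, *Eef1a1*, *Ap4s1*, *Cerk* and *Rpl23*. For *Adora2a*, 4 of 10 antigen signal genes were found more often, namely *Nr4a2*, *Nr4a3*, *Egr2* and *Egr3*, and *Egr3*, an early transcription factor of T cell receptor signaling, was the highest of all genes (1.48, 1.45 and 1.56). *Glcci1*, *Hivep3*, *Dancr* and *Zfpl1* followed. The lowest for *Adora2a* were *Msmo1*, *Rpl39*, *Abca2*, *Selenop* and *Rack1*, and *Gzmd* (0.760, 0.708 and 0.694) was found less often with it.

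Of 56 genes on 6 lists of the wider pathway, 36 could be compared, the members included. With Trikine over sIL-2, 0 were higher and 6 lower (all genes 3.45% and 7.36%), with a median log2 ratio of -0.16 beside -0.08 over all genes. With the combination over sIL-2, 0 were higher and 9 lower (all genes 7.32% and 11.2%), with a median of -0.21 beside -0.08. Trikine over the combination gave 5 higher and 3 lower (all genes 4.59% and 5.68%), with a median of 0.07 beside -0.00.

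Among the other ectonucleotidases, *Enpp1*, which also splits nucleotides outside the cell, measured 14.9 CPM with sIL-2, 14.7 CPM with Trikine and 16.8 CPM with the combination. *Enpp3* measured 1.05 to 1.24 CPM. *Entpd2*, *Entpd3*, *Entpd8*, *Alpl* and *Acpp* were all under 1 CPM, and *Entpd8* had no UMI in any library. Of the NAD ectoenzymes, *Art2b*, an ADP-ribosyltransferase on T cells, measured 4.29, 4.35 and 1.14 CPM for sIL-2, Trikine and the combination, a log2 ratio of -1.91 for the combination over sIL-2. Like *Nt5e*, it was lowest with the combination. Of the adenosine receptors, *Adora2b* measured 3.59, 2.39 and 3.04 CPM and *Adora3* 0.453, 0.210 and 1.96 CPM, and *Adora1* had no UMI.

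Downstream and around the receptor, the cAMP phosphodiesterases *Pde3b*, *Pde7a* and *Pde2a*, which break down cAMP, were lower with the combination than with sIL-2, at log2 ratios of -0.73, -0.73 and -1.07. *Crem*, a transcription factor of the cAMP response, measured 198, 151 and 135 CPM for sIL-2, Trikine and the combination. *Pde4a* measured 9.73, 5.42 and 9.60 CPM and was, like *Entpd1*, lowest with Trikine. The stimulatory G protein gene *Gnas* measured 376, 299 and 304 CPM. Among ATP receptors, *P2rx4* measured 6.04, 6.22 and 3.37 CPM and *P2ry12* 3.69, 2.11 and 3.56 CPM. *Ada*, which turns adenosine into inosine, measured 5.37, 3.99 and 3.80 CPM. *Ada*, *Adk*, *Pnp*, *Dpp4*, *Slc29a1* and *Slc28a2*, on the list of adenosine uptake and clearance, stayed within the fold between all libraries. For the combination over sIL-2, *Ada* and *Dpp4* lay just inside it, at log2 ratios of -0.4998 and -0.4993. *Slc29a3*, a nucleoside transporter, measured 12.4, 9.17 and 7.52 CPM.

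Cells with markers of other types were few, and 1 kind carried more *Entpd1* and *Cd38* than the other cells. A cell was called myeloid-marked with a UMI of at least 4 of 12 myeloid genes, which held for 16, 35 and 11 cells with sIL-2, Trikine and the combination. In these 62 cells *Entpd1* measured 90.2 CPM, against 29.1 CPM in the other cells, and they held 1.32% of all *Entpd1* UMIs and 0.467% of *Nt5e* UMIs. *Cd38* measured 19.0 CPM in them against 7.65 CPM, with 1.06% of its UMIs. Without the myeloid-marked and melanoma-marked cells, *Entpd1* measured 33.5, 21.5 and 33.3 CPM. The thinned odds ratios of *Entpd1* and *Cd38* were then 2.03, 1.60 and 1.17, and the part of these cells in the full-depth values was not tested. In 35 melanoma-marked cells, with a median of 7000 UMIs, 8.57% had an *Entpd1* UMI (1.80% to 23.1%), 11.4% an *Nt5e* UMI (3.20% to 26.7%), 2.86% a *Cd38* UMI and 28.6% an *Adora2a* UMI (14.6% to 46.3%). In the other cells, with a median of 11991 UMIs, the shares were 25.7%, 13.9%, 9.69% and 32.1%. The melanoma-marked shares give the detection of the members in cells with melanoma transcripts that passed the same sort. Apart from *Entpd1* the intervals given include the share in the other cells. Whether the melanoma-marked cells were of another kind was not tested, and they were too few to set a background.

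The reference promoters of both ectonucleotidases are shown because their levels parted between libraries and states. They are the 250 bases before the listed starts in RefSeq (GRCm38.p6), on the plus strand, with *Entpd1* having 2 listed starts on chromosome 19 (chr19:40612116-40612365 and chr19:40659520-40659769) and *Nt5e* 1 on chromosome 9 (chr9:88327359-88327608). Capitals would mark a motif, and there are none.

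Nt5e: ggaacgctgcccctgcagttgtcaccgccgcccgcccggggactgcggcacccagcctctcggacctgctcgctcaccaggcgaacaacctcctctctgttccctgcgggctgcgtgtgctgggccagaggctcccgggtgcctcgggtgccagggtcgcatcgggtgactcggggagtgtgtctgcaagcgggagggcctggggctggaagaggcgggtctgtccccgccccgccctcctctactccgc
Entpd1, start 1: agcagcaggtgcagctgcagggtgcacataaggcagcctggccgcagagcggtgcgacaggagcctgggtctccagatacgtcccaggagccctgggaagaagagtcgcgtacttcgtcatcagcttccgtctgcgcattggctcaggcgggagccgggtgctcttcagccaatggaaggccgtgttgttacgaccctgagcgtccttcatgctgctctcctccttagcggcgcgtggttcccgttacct
Entpd1, start 2: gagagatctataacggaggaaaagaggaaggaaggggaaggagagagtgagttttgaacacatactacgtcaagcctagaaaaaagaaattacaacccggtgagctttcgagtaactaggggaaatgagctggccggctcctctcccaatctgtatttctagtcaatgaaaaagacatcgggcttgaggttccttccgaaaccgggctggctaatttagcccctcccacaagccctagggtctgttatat

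The *Nt5e* stretch was 72.0% G and C, and the *Entpd1* stretches were 62.4% and 47.2%. Both strands were searched for the STAT motif TTCNNNGAA, the cAMP response element TGACGTCA, the AP-1 motifs TGACTCA and TGAGTCA, and the hypoxia core ACGTG. None was in these windows or in that of *Cd38*, also 250 bases, while 7.02%, 1.55%, 4.46% and 16.6% of all 32851 listed promoters of that length held them. These letters were not in these windows, which says nothing of binding elsewhere.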

How the data were processed

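Intratumoral T cells were sequenced with the 10x Genomics 3' v3.1 chemistry, and the matrices that the authors deposited hold raw UMI counts from Cell Ranger (9.0.0 in the file headers), not normalized and with intronic reads included. The labels name mm10 and the methods a GRCm39 reference, so no position was taken from the counts. Promoters came from RefSeq (GRCm38.p6), which listed starts for 3 of the 4 members.

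Cells with 500 to 120000 UMIs and at most 20% mitochondrial UMIs were kept (30857 of 31026). No doublet caller was run. Levels were UMIs summed per library as CPM, with exact Poisson intervals for levels, exact conditional binomial intervals for ratios and exact binomial intervals for shares. A log2 ratio of at least 0.5 in size counted as a call, over genes with at least 1 CPM on average, without mitochondrial genes and T cell receptor and immunoglobulin segments. Cells were thinned to 2000 UMIs with a fixed seed (28452 cells), and 0.5 was added to each cell of a 2 by 2 table. Named genes were the members, the list genes, and for each member the 5 highest and 5 lowest odds ratios. Some genes under this rule are not reported here. The members and lists were chosen with earlier results of these data known. Alternatives covered scaling, weight and limits of cells, depth, other cell types and filters, of which those without shared barcodes, at full depth within bins, with at least 2 UMIs, and the states within bins of depth were chosen after seeing the data. The steps were tested on simulated data. Scripts ran in Python (3.11.15), using scipy 1.17.1, numpy 2.4.6, matplotlib 3.10.9 and pandas 2.3.3.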

Additional observations from a re-analysis of the deposited data

Results flagged for a closer look

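For *Nt5e*, cells high for the STAT3 and STAT5 feedback list (*Socs1*, *Socs2*, *Socs3*, *Cish*, *Pim1*, *Bcl3*, *Osm* and *Il2ra*, genes that cytokine receptors switch on) gave opposite directions in different libraries. High over low cells had a log2 ratio of -0.36 (-0.66 to -0.06) with sIL-2 and 0.44 (0.12 to 0.76) with Trikine. The value with the combination was 0.42 (-0.12 to 0.95), and within 4 bins of UMIs per cell the values were -0.53, 0.24 and -0.10. With 1 library per condition the difference between libraries was not tested.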

How the results depend on the processing

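No direction of a called log2 ratio turned under the alternatives run. For *Entpd1*, Trikine over sIL-2 was -0.55 with median-of-ratios scaling, -0.37 with each cell weighted equally, -0.55 without the 10% of cells with the most UMIs and -0.50 after thinning, and Trikine over the combination was -0.35 with equal weights and -0.44 after thinning. With median-of-ratios scaling, *Entpd1* in the combination over sIL-2 was 0.066, *Nt5e* in Trikine over sIL-2 -0.64, and *Adora2a* -0.24 in Trikine and -0.54 in the combination over sIL-2. For *Nt5e*, Trikine over the combination was 1.18 with equal weights and 1.30 after thinning, and the combination over sIL-2 was -1.84 and -2.04. For *Cd38*, Trikine over the combination was 0.19 without the deepest cells and 0.22 after thinning, and the combination over sIL-2 was -0.29 with equal weights and -0.28 without the deepest cells. For *Adora2a*, Trikine over the combination was 0.23 with equal weights and 0.25 without the deepest cells, and the combination over sIL-2 was -0.54 with equal weights and -0.53 after thinning. Why these values moved was not tested.

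Without the filter on CPM, genes past the fold numbered 4022 higher and 4517 lower for Trikine over sIL-2, 4325 and 4601 over the combination, and 4689 and 4952 for the combination over sIL-2, against 388 and 827, 516 and 638, and 822 and 1257, since genes with a few UMIs then entered. Pathway genes were then 2 higher and 13 lower, 9 and 10, and 8 higher. The odds ratio of *Entpd1* and *Nt5e* with Trikine was 0.541 in cells thinned to 1000 UMIs. Another random draw at 2000 UMIs gave 0.867, 1.19 and 1.49 for sIL-2, Trikine and the combination. Thinned co-detection thus varied with the depth and the random draw used, and why was not tested. No paired analysis was possible because each condition had 1 library.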
